A study of Mus musculus with 6 samples.

Results

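The constitutive proteasome subunits are the proteins that build the 26S proteasome in nearly every cell. Their genes were followed here in germinal centre B cells of the mouse spleen. Every row of the deposited count table whose symbol begins with Psma, Psmb, Psmc or Psmd and a digit was taken, leaving out the interferon-inducible subunits Psmb8, Psmb9 and Psmb10. That gave 37 of the 23412 rows, all 37 with counts and all 37 passing the low-count filter. Of these, 14 encode the core particle (Psma1 to Psma7 and Psmb1 to Psmb7) and 17 encode the regulatory particle (Psmc1 to Psmc6 and 11 Psmd genes). The other 6 are no part of the constitutive particle. Psmd5, Psmd9 and Psmd10 encode assembly chaperones, and Psma8 and Psmb11 encode core subunits of testis and of thymus. Psmc3ip encodes a protein of meiotic recombination that is not a subunit. The 31 true subunits lie on 14 chromosomes, with 6 of them on chromosome 11.

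The comparison is of Cg1-cre(+/-);DAF-TM(fl/fl) mice, called DAF-TM here, with Cg1-cre(+/-) mice, the controls. Cre in both is driven by the Cg1 allele, which is active in B cells that have begun to respond to antigen, and the DAF-TM cassette sits at the Rosa26 locus. The controls therefore carry Cre as well. The submitters also write the controls as DAF-Tg(+/+), and the header of the count table writes the Cre allele of both as (+/fl), so the notation is not uniform. All mice received sheep red blood cells in the peritoneum, and B220+ GL7+ Fas+ cells were sorted from the spleen on day 10. The labels give neither age nor sex of the mice, nor whether a library came from 1 mouse or a pool, so p-values measure only the spread between libraries, which may be technical. The columns of DAF-TM replicates 2 and 3 held the same value in all 23412 rows, a difference below sampling noise, and entered the fit as 1 sample. This left 2 DAF-TM and 3 control libraries. Totals were 11280400 and 10684753 counts in the DAF-TM libraries and 9627306, 12783965 and 7257339 counts in control libraries 1 to 3.

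Cd55, the gene of decay accelerating factor, had 713 and 726 CPM in the DAF-TM libraries, against 28.7, 34.4 and 23.5 CPM in the controls (CPM, a gene's counts put on a common library size with TMM scaling factors, as in all CPM below). The libraries were mixed in sex-linked genes. Xist stood at 297 and 720.3 CPM in the DAF-TM libraries and at 759, 2.63 and 2.86 CPM in the controls, and 4 Y-linked genes summed to 289 and 0 CPM in the DAF-TM libraries and to 0.106, 708 and 478 CPM in the controls, so that DAF-TM library 1 held both. Markers of the sorted cell were abundant. Of 12 germinal centre and B cell markers, summing to 12850 and 11755 CPM in the DAF-TM libraries and to 13074, 15280 and 12773 CPM in the controls, none passed the test described below. Markers of natural killer cells summed to 93.8 and 53.6 CPM in the DAF-TM libraries against 17.4, 23.2 and 33.0 CPM in the controls, with 6 of 8 called higher. Macrophage markers summed to 85.1 and 57.3 CPM in the DAF-TM libraries against 31.9, 26.8 and 29.3 CPM in the controls, with 4 of 8 called higher, and T cell markers to 47.6 and 47.8 CPM in the DAF-TM libraries against 26.5, 21.8 and 27.0 CPM in the controls, with 1 of 8 called higher. Of the other lists, 1 of 7 dendritic cell markers and 1 of 7 plasma cell markers were called higher, and 0 of 7 neutrophil and 0 of 4 tested erythroid markers were called in either direction. Neutrophil markers summed to 21.4 and 55.6 CPM in the DAF-TM libraries and to 80.7, 74.5 and 249 CPM in the controls. The erythroid gene Hba-a1 had 0 counts in every library.

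The core particle is a barrel of stacked rings in which alpha subunits form the outer rings and the gate, and beta subunits form the inner rings that hold the active sites. The regulatory particle caps the barrel. Its base contains the ATPases Psmc1 to Psmc6, which unfold substrates and thread them inward, and its lid contains Psmd14, the enzyme that removes ubiquitin from the substrate. Germinal centre B cells divide fast and present antigen, and lymphoid cells are known to replace the catalytic subunits of many barrels with their inducible counterparts.

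No constitutive subunit passed the test between DAF-TM and control cells. By edgeR's quasi-likelihood test, 0 of the 37 genes were called higher and 0 were called lower (adjusted p below the threshold of 0.05). At the unadjusted 0.05 level the number was also 0, and the smallest unadjusted p was 0.0666, for Psmb3. Over all 18767 genes tested, 0.373% were called higher and 0.0373% lower. DESeq2 also called 0 of the 37, with 1 gene past 0.05 before adjustment. All 14 core subunits had a log2 fold change (DAF-TM over control) below 0, from -0.31 for Psmb3 to -0.15 for Psmb6, with a median of -0.21. Of 17 regulatory subunits 16 were below 0, from -0.28 for Psmd14 to 0.03 for Psmc5, with a median of -0.09. The median over all genes tested was 0.03. Each of the 31 estimates had an SE between 0.166 and 0.167, so that each lay within 2 SE of 0. These SE are nearly uniform since the fit takes most of its information on the spread from all genes together, with only 3 residual degrees of freedom of the gene's own.

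**Figure D1:**
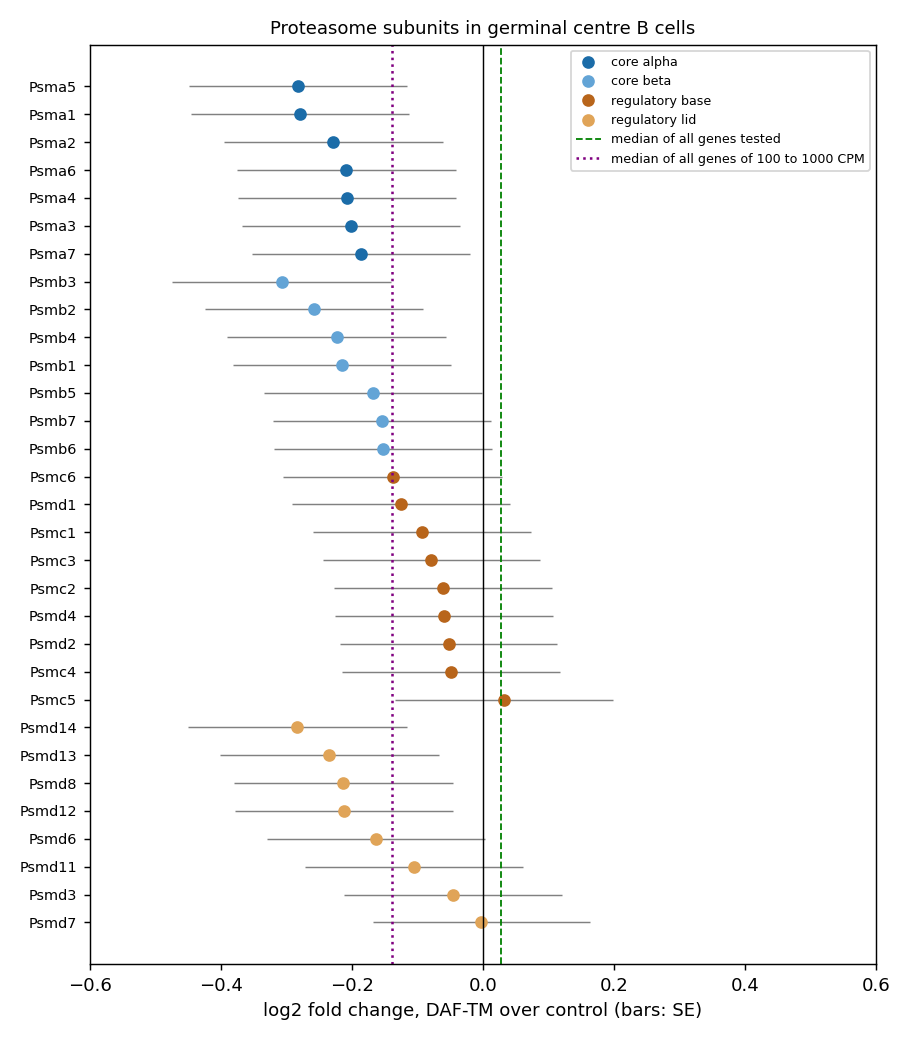
Log2 fold change of each proteasome subunit, DAF-TM over control (x axis), with its SE as a bar. Rows are ordered by subunit group, the dashed line is the median of all genes tested (0.03) and the dotted line that of all genes of 100 to 1000 CPM (-0.14). The alpha and beta subunits lie between -0.31 and -0.15, and the base subunits between -0.14 and 0.03.

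The values below 0 were shared with other genes of the same level. All 31 subunits fall between 100 and 1000 CPM on average. In this band, 2527 genes had a median log2 fold change of -0.14, and 84.9% of them were below 0. In contrast, 8707 genes of 1 to 10 CPM had a median of 0.23. Within the same band of level, the median was -0.17 for transcripts shorter than 1 kb, -0.14 for 1 to 2 kb and -0.12 for 2 to 3 kb. It was -0.13 for 3 to 5 kb and -0.15 beyond 5 kb, with no steady trend in the median. The share of genes below 0 was 94.8%, 89.2%, 82.5%, 84.4% and 81.4% in the same order, highest for the shortest transcripts. The median length was 1.16 kb for core and 1.64 kb for regulatory transcripts, and 19 of the 31 subunits fall between 1 and 2 kb. When a trend with level was removed from each library by cyclic loess, the core median was -0.05 and the regulatory median 0.05, and 0 subunits were called. The part that level and length have in these values was not tested.

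Among the alpha subunits, Psma5, Psma1 and Psma2 had the lowest p. Psma1 had 468 and 459 CPM in the DAF-TM libraries, against 532, 658 and 498 CPM in the controls, or 464 ± 6.43 CPM in DAF-TM (SD, n = 2) and 563 ± 84.0 CPM in control cells (SD, n = 3). Psma5, the alpha subunit with the lowest CPM, had 119 and 110.03 CPM in DAF-TM cells and 143, 151 and 124 CPM in control cells. Psma2 had 440.003 and 435 CPM in DAF-TM cells and 496, 601 and 441 CPM in control cells. In all 3 genes both DAF-TM libraries lay below every control, by a narrow margin in Psma2, and control library 2 was the highest. The log2 fold changes were -0.28 for Psma5 (edgeR adjusted p = 0.929), -0.28 for Psma1 (edgeR adjusted p = 0.932) and -0.23 for Psma2 (edgeR adjusted p = 0.945).

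Of the other alpha subunits, Psma7 had 404 and 391 CPM in the DAF-TM libraries, against 454, 486 and 418 CPM in the controls, and Psma6 had 290 and 315 CPM in the DAF-TM libraries against 326, 400.5 and 322 CPM in the controls, again without overlap. Psma3 and Psma4 overlapped: Psma3 stood at 349 and 327 CPM in DAF-TM cells and at 367, 456 and 343 CPM in control cells. Psma4 stood at 165 and 152 CPM in DAF-TM cells and at 170.01, 219 and 159 CPM in control cells. The alpha subunits thus differed most from one another in level, and little in their fold change, which spanned -0.28 to -0.19.

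**Figure D2:**
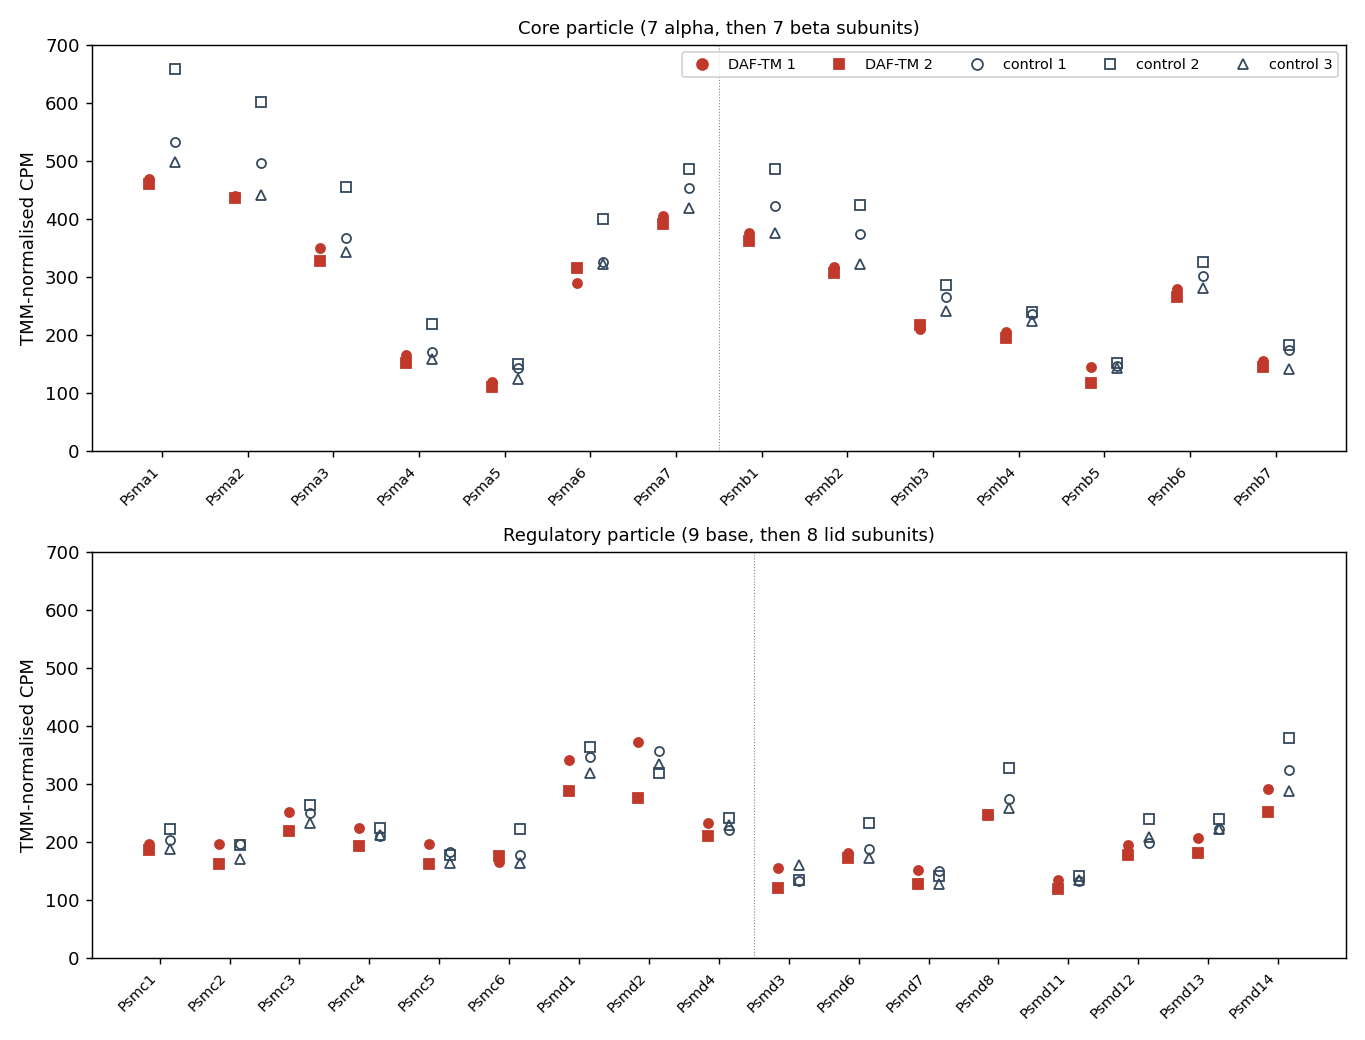
TMM-normalised CPM (y axis) of the 14 core subunits (upper panel) and the 17 regulatory subunits (lower panel) in each library. Filled red symbols are the 2 DAF-TM libraries and open symbols the 3 controls. Control library 2, the open square, is the highest of the 5 libraries in all 14 core subunits.

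The beta ring holds 3 catalytic subunits. Psmb5 carries the chymotrypsin-like site, Psmb6 the caspase-like site and Psmb7 the trypsin-like site. Psmb5 had 144 and 118 CPM in the DAF-TM libraries, against 147, 151 and 144 CPM in the controls, so that DAF-TM library 2 alone was set apart. Psmb6 had 279 and 265 CPM in DAF-TM cells and 301, 325 and 281 CPM in control cells, without overlap. Psmb7 had 154 and 144 CPM in DAF-TM cells and 174, 183 and 141 CPM in control cells, with control library 3 the lowest of all. Their log2 fold changes of -0.17, -0.15 and -0.15 were the smallest of the beta ring, and the edgeR adjusted p was 0.949 for each.

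Of the beta subunits without an active site, Psmb3 had the lowest p of all 37 genes. It stood at 211 and 217 CPM in the DAF-TM libraries, against 266, 286 and 242 CPM in the controls. Both DAF-TM libraries were below every control, and the fitted level was 19.2% lower (log2 fold change -0.31, SE 0.17, edgeR adjusted p = 0.897). Psmb2 had 318 and 307 CPM in DAF-TM cells and 375, 424 and 322 CPM in control cells (log2 fold change -0.26, edgeR adjusted p = 0.945). Psmb4 had 205 and 194 CPM in DAF-TM cells and 235, 239.7 and 224 CPM in control cells (log2 fold change -0.22, edgeR adjusted p = 0.945). Neither overlapped. Psmb1, at 376 and 361 CPM in DAF-TM cells and 421, 486 and 375 CPM in control cells, did.

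In the base, no subunit separated the groups. Psmc1 and Psmc6, both ATPases, and Psmd1, a large scaffold, had the lowest p of the base. Psmc6 stood at 165 and 176 CPM in DAF-TM cells and at 177, 222 and 163 CPM in control cells (log2 fold change -0.14, edgeR adjusted p = 0.953). Psmd1 stood at 341 and 287 CPM in DAF-TM cells and at 346, 363 and 318 CPM in control cells (log2 fold change -0.12, edgeR adjusted p = 0.956). Psmc1 stood at 197 and 187 CPM in DAF-TM cells and at 204, 222 and 187 CPM in control cells (log2 fold change -0.09, edgeR adjusted p = 0.969). Control library 3 lay between the DAF-TM libraries in Psmd1 and in Psmc1, and was the lowest of all libraries in Psmc6.

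Psmd4, a ubiquitin receptor of the base, was level, at 232 and 210.4 CPM in the DAF-TM libraries and 220.2, 241 and 229.6 CPM in the controls (log2 fold change -0.06, edgeR adjusted p = 0.982). Psmd2, a scaffold that binds ubiquitin shuttles, showed the widest gap between the DAF-TM libraries, at 372 and 275 CPM, against 356, 318 and 333 CPM in the controls. DAF-TM library 1 was the highest of all libraries and DAF-TM library 2 the lowest. Psmc5, the only subunit with a value above 0, followed the same pattern, at 196 and 161 CPM in DAF-TM cells and 182, 178 and 163 CPM in control cells. The other ATPases overlapped as well. Psmc2 stood at 197 and 162 CPM in DAF-TM cells and at 196.5, 195 and 170.1 CPM in control cells. Psmc3 stood at 252 and 219 CPM in DAF-TM cells and at 249, 264 and 233 CPM in control cells. Psmc4 stood at 224 and 193 CPM in DAF-TM cells and at 210.5, 224 and 212 CPM in control cells, and in each of the 3 DAF-TM library 2 was the lowest.

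The lid was mixed. Psmd14, the ubiquitin-removing enzyme, had 291 and 251 CPM in the DAF-TM libraries, against 323, 379.5 and 287 CPM in the controls, or 271 ± 28.0 CPM in DAF-TM (SD, n = 2) and 329.9 ± 46.6 CPM in control cells (SD, n = 3; log2 fold change -0.28, edgeR adjusted p = 0.928). Control library 3 lay between the DAF-TM libraries. The structural subunits Psmd13, Psmd8 and Psmd12 did not overlap between the groups. Psmd13 had 207 and 181 CPM in DAF-TM cells and 222, 239.8 and 223 CPM in control cells (log2 fold change -0.23, edgeR adjusted p = 0.945). Psmd8 had 247 and 247 CPM in DAF-TM cells and 274, 327 and 258 CPM in control cells (log2 fold change -0.21, edgeR adjusted p = 0.945). Psmd12 had 194 and 178 CPM in DAF-TM cells and 198, 239 and 208 CPM in control cells, with a log2 fold change of -0.21.

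The remaining lid subunits overlapped. Psmd7 stood at 152 and 127 CPM in DAF-TM cells and at 149, 142 and 127 CPM in control cells, with a log2 fold change of -0.0024. Psmd3, at 155 and 121 CPM in DAF-TM cells and 133, 134 and 159.7 CPM in control cells, had its lowest value in DAF-TM library 2 and its highest in control library 3. Psmd6 stood at 180.2 and 173 CPM in DAF-TM cells and at 188, 232 and 173 CPM in control cells. Psmd11, the regulatory subunit of lowest level, stood at 134 and 119 CPM in DAF-TM cells and at 133, 141 and 134 CPM in control cells. Fold changes in the lid thus spanned -0.28 to -0.0024 on the log2 scale, against -0.14 to 0.03 in the base.

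Groups that do not overlap can be counted without a model. Both DAF-TM libraries lay below all controls in 9 of 14 core subunits and in 3 of 17 regulatory ones, and in no subunit did both lie above. Over all genes tested 9.02% lay below and 11.3% above, and among the 2527 genes of 100 to 1000 CPM 24.7% lay below. In that band the share below fell with length. It was 38.1% for transcripts under 1 kb, 29.5% for 1 to 2 kb, 23.7% for 2 to 3 kb, 22.5% for 3 to 5 kb and 21% beyond 5 kb. The count of the core depended on the scaling. It was 8 with RLE factors, 5 with upper-quartile factors and 1 after cyclic loess, where the shares of the genes of 100 to 1000 CPM were 25.2%, 19.7% and 10.8%. The regulatory count was 3, 4 and 2 in these settings. After cyclic loess the share was thus 7.14% of the core and 11.8% of the regulatory subunits. The counts also depended on which library was left out. Without DAF-TM library 1 the groups did not overlap in 13 core and 16 regulatory subunits, and in 74.2% of the genes of that band. Without DAF-TM library 2 the groups did not overlap in 9 core and 3 regulatory subunits, and in 27.9% of that band. Without control library 3 the groups did not overlap in 14 core and 7 regulatory subunits, and in 47.5% of that band.

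By library, the core of DAF-TM library 1 stood at a median log2 ratio of -0.18 to the mean of the controls, while its regulatory particle was level at -0.0034. DAF-TM library 2 was lower in both, at -0.25 for the core and -0.20 for the regulatory particle. The controls ranged from -0.16 in library 3 to 0.17 in library 2 for the core, and from -0.095 to 0.072 for the regulatory particle. Control library 2 was the highest library in 14 of 14 core subunits and 11 of 17 regulatory ones. DAF-TM library 2 was the lowest library in 11 of 14 core and 15 of 17 regulatory subunits. The regulatory median of -0.09 hence rested on single libraries: it was -0.20 without DAF-TM library 1 and -0.0063 without DAF-TM library 2. The core median was -0.26 and -0.19 in these fits, and -0.12 without control library 2.

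The ratio of core to regulatory transcripts is free of the scaling of a library. Summed CPM of the core over that of the regulatory particle was 1.05 and 1.16 in DAF-TM libraries 1 and 2, against 1.17, 1.25 and 1.13 in the controls. DAF-TM library 2 lay within the range of the controls and DAF-TM library 1 below it. The mean log2 ratio differed by -0.096 (DAF-TM minus control), where the SD of the 3 controls was 0.074. This difference was -0.023 without DAF-TM library 1 and -0.17 without DAF-TM library 2. The difference of the median log2 fold changes, core minus regulatory particle, was -0.12, and -0.098 after cyclic loess. It was -0.058 without DAF-TM library 1 and -0.18 without DAF-TM library 2. No p is given for these values, since the genes were chosen with earlier results known. In sorted bulk samples, fewer cells of a type and less RNA per cell cannot be told apart.

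**Figure D3:**
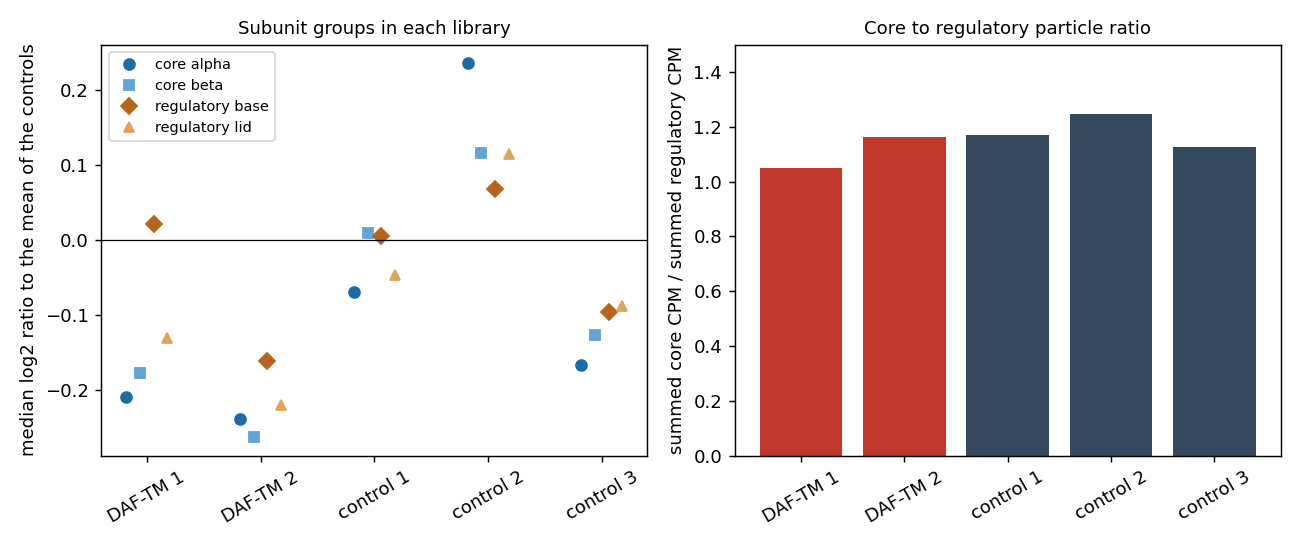
Left, median log2 ratio to the mean of the controls (y axis) for the 4 subunit groups in each library. Right, summed core CPM over summed regulatory CPM in each library, as bars from 0. DAF-TM library 1 has the lowest ratio, 1.05, and DAF-TM library 2, at 1.16, lies within the controls (1.13 to 1.25).

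Core subunits are present in equal copies in the particle, yet they differed in transcript level. Per kilobase of the principal transcript (GENCODE M21, GRCm38), control means in the core ran from 112 CPM per kb for Psma5 to 495 CPM per kb for Psma7, a 4.40-fold range. In the regulatory particle they ran from 47.8 CPM per kb for Psmd11 to 214 CPM per kb for Psmd14, a 4.48-fold range. The median per length was 189 in DAF-TM and 220.1 in control cells for the core, and 109 in DAF-TM and 115 in control cells for the regulatory particle, all in CPM per kb. In control cells, 7 of 14 core subunits stood above 200 CPM per kb and only Psmd14 among the 17 regulatory ones. Psma2 and Psma3 have principal transcripts of 2.91 and 2.85 kb in this annotation, against at most 1.24 kb for the other alpha subunits, so their value per length rests on that annotation. With merged exons in place of the principal transcript, Psma1 was the highest core subunit, at 453 CPM per kb before Psma7 at 383, the core spanned a 4.03-fold range, and Psmb1 stood at 125 against 243 CPM per kb. Then 6 core subunits were above 200 CPM per kb in control cells.

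Of the genes that share the naming but not the particle, the assembly chaperones Psmd5, Psmd9 and Psmd10 had log2 fold changes of -0.18, -0.20 and -0.195. Both DAF-TM libraries were below all controls in the 3 genes. The same held for 9.02% of all genes tested, 12.6% of those of 10 to 100 CPM and 24.7% of those of 100 to 1000 CPM. Psmd9, the least abundant of the 3 chaperones, stood at 47.5 and 46.9 CPM in DAF-TM cells and at 51.6, 58.3 and 52.9 CPM in control cells. Psma8, the testis form, had 7 and 17 counts in the DAF-TM libraries, against 9, 20 and 10 counts in the controls. Psmb11, the thymus form, had 41 and 63 counts in the DAF-TM libraries, against 45, 44 and 45 counts in the controls. Psmc3ip stood at 33.6 and 29.0 CPM in DAF-TM cells and at 33.0, 35.5 and 28.5 CPM in control cells. None of the 6 passed the test, with edgeR adjusted p values between 0.949 and 0.985.

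By these counts per length, the inducible transcript exceeded its constitutive counterpart at the chymotrypsin-like site and at neither of the other sites. Exons of Psmb8 overlap those of Gm20496, and exons of Psmb9 overlap those of Tap1. Psmb5 and Psmb7 overlap Mir686 and Nek6. The ratios are uncertain for that reason, and the part of these overlaps in them was not tested. They also rest on the annotated lengths, such as 1.35 kb for Psmb9 and 0.798 kb for Psmb6. Without division by length, mean CPM of Psmb9 was above that of Psmb6, at 305 against 272 in DAF-TM and 320 against 302 in control cells. Mean CPM of Psmb10 was below that of Psmb7, at 141 against 149 in DAF-TM and 139 against 166 in control cells. Psmb8 over Psmb5 per kilobase was 3.70 and 4.14 in the DAF-TM libraries and 3.78, 4.04 and 3.82 in the controls, and these overlap. Psmb9 over Psmb6 was 0.710 and 0.612 in the DAF-TM libraries and 0.626, 0.623 and 0.623 in the controls. Psmb10 over Psmb7 was 0.886 and 0.782 in the DAF-TM libraries and 0.731, 0.649 and 0.878 in the controls. Psmb8 had a log2 fold change of -0.16 (edgeR adjusted p = 0.949), Psmb9 of -0.07 (edgeR adjusted p = 0.978) and Psmb10 of 0.02 (edgeR adjusted p = 0.995), and the sign of Psmb10 turned with RLE factors.

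**Figure D4:**
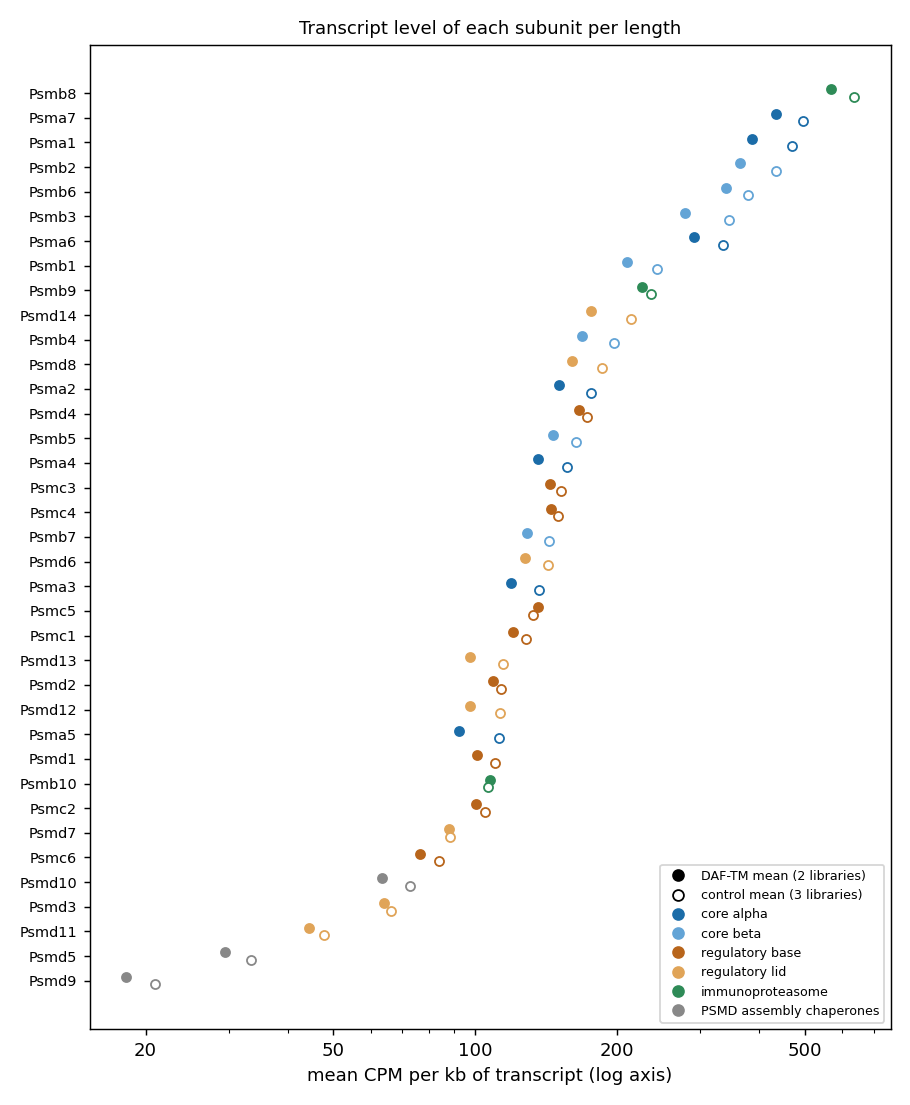
Mean CPM per kilobase of principal transcript (log axis) for each subunit, its inducible counterparts and the PSMD assembly chaperones. Filled points are DAF-TM means of 2 libraries and open points control means of 3. Psmb8 is the highest, at 569 CPM per kb in DAF-TM and 636 in control cells.

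Partners of the particle gave no call either. Of 5 activators and inhibitors, 0 passed the test in either direction and the median log2 fold change was -0.14. Psme3, a nuclear activator, had the lowest p, at 259 and 206 CPM in DAF-TM cells and 268, 261 and 252 CPM in control cells (log2 fold change -0.16, edgeR adjusted p = 0.949), and Psme4 also stood at -0.16. Of 5 core assembly chaperones 0 passed (median -0.07), with Psmg3 at -0.18 and Pomp, which guides the assembly of the barrel, at -0.11. Of 13 further subunits, receptors, shuttles and enzymes in or bound to the regulatory particle 0 passed (median -0.08). Among them, Adrm1 and Shfm1 encode subunits that the symbol rule left out of the 17. The ubiquitin shuttle Rad23b stood at -0.21 and the ubiquitin ligase Ube3c at -0.18. Of 7 genes of ubiquitin supply and extraction 0 passed (median -0.11), with the ubiquitin-activating enzyme Uba6 at -0.26 and Ufd1l, a cofactor of the extraction enzyme Vcp, at -0.23.

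Nfe2l1 encodes the transcription factor that raises proteasome genes when proteasome activity is short, through antioxidant response elements. It had 85.6 and 65.9 CPM in the DAF-TM libraries, against 64.5, 73.1 and 70.4 CPM in the controls (log2 fold change 0.13, SE 0.17, edgeR adjusted p = 0.956). DAF-TM library 1 was the highest of all and DAF-TM library 2 lay within the controls. Of 7 genes of this axis 0 passed, with a median of -0.03. Its relative Nfe2l2 stood at 0.27 (edgeR adjusted p = 0.945) and the small partner Mafk at -0.27 (edgeR adjusted p = 0.945).

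Genes of the germinal centre and of division also had values below 0. So did 84.9% of all genes of 100 to 1000 CPM (median -0.14) and 86% of those of 1000 CPM or more (median -0.15). Among the 12 germinal centre and B cell markers 11 were below 0, with a median log2 fold change of -0.18. Bcl6, the master regulator of the germinal centre, had 214 and 239 CPM in DAF-TM cells and 287, 278 and 313 CPM in control cells (log2 fold change -0.37, edgeR adjusted p = 0.795). Of 10 genes of cell division and DNA replication all 10 were below 0 with a median of -0.17 and 0 passed, the lowest p being that of Ccnb1, the mitotic cyclin, at -0.37 (edgeR adjusted p = 0.795), before Pcna, the sliding clamp of replication, at -0.26. The part of these markers in the values of the proteasome genes, and that of the markers of natural killer cells, macrophages and T cells given above, was not tested.

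Promoters of the subunits were read in the 250 bases before a RefSeq transcript start (GRCm38.p6), which need not be the outermost start of the gene. Windows were held for 25 of the 31 subunits, 27 windows in all. In 23 of these the bases just after the start matched the beginning of a GENCODE transcript of the gene. The core of the antioxidant response element, TGACNNNGC on either strand, was found in 4 of the 25, namely Psmb5, Psmb6, Psmc6 and Psmd12, a share of 16.0%, against 11.5% of 27025 genes. The CCAAT box, on either strand, was found in 10 of 25, or 40.0%, against 37.5% of all genes. It was found in 5 of 7 alpha, 1 of 4 beta, 3 of 8 base and 1 of 6 lid subunits. In Psma7 and Psmc1 it lay in a window without a matching transcript start. Matches of the 2 motifs can overlap, but none of the 4 windows with the element held a CCAAT box. A match is a description, not a binding site. The stretches with the element are shown because it is the one through which Nfe2l1 acts, and those of Psma1 and Psmb3 because these are the alpha and beta subunits of lowest p that hold a CCAAT box. They run 5′ to 3′ on the strand of the gene, with the motif in capitals. Each lies before the RefSeq transcript start that its promoter window was drawn from. That of Psmb6 lies inside the outermost RefSeq bounds of its gene, which open at chr11:70525324. The windows lie at chr14:54618009-54618068 (minus strand) for Psmb5, chr11:70525327-70525356 (plus strand) for Psmb6, chr14:45329574-45329633 (plus strand) for Psmc6, chr11:107479278-107479337 (plus strand) for Psmd12, chr7:114276182-114276271 (minus strand) for Psma1 and chr11:97703327-97703416 (plus strand) for Psmb3.
Psmb5: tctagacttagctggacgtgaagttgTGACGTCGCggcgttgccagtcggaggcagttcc
Psmb6: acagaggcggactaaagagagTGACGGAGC
Psmc6: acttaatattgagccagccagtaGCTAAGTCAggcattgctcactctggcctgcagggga
Psmd12: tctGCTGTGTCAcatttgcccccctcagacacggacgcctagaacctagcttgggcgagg
Psma1: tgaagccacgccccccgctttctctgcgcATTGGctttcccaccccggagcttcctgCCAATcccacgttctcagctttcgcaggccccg
Psmb3: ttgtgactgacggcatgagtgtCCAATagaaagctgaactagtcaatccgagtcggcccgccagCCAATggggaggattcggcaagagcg

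Distances were counted from the RefSeq transcript start used for each promoter. The element of Psmb5 begins 47 bases before it. That of Psmb6 begins 9 bases before it, inside the outermost bounds of the gene. Those of Psmc6 and Psmd12 lie 227 and 247 bases away. The log2 fold changes of the 4 genes with the element were -0.17 for Psmb5, -0.15 for Psmb6, -0.14 for Psmc6 and -0.21 for Psmd12. Values of genes with a CCAAT box spread from -0.31 in Psmb3 and -0.28 in Psmd14 to -0.06 in Psmc2 and Psmd4. Values of genes with a window and neither motif spread from -0.28 in Psma5 to 0.03 in Psmc5, with Psmb4 at -0.22 and Psmc4 at -0.05. The window of Psmc5 lacked a matching transcript start.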

How the data were processed

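The deposited table holds the authors' raw counts by gene symbol in 6 columns, mapped to mm10 per the file header. The submitters' processing notes name bcl2fastq, HISAT2 and featureCounts. How strand and multi-mapping reads were treated, and which annotation was used, is not given in the sources used here. Exons of 9 of the 37 genes overlap those of another gene (Psma4, Psma5, Psmb5, Psmb7, Psmc3, Psmd1, Psmd3, Psmd13 and Psmc3ip), so their counts are uncertain. In 27 rows the symbol has the form of a date, and none of these is a member.

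All genes were fitted together in R 4.3.3 using edgeR 4.0.16 (TMM, filterByExpr with the group, glmQLFit with robust = TRUE, glmQLFTest), with group as the sole term. Two-sided p-values were adjusted across 18767 genes by the Benjamini-Hochberg method, and calls were made at 0.05. The code was tested on simulated data. Alternatives were RLE and upper-quartile factors, cyclic loess, other low-count filters, DESeq2 1.42.0, limma-voom (limma 3.58.1), a replicate block and leaving out each library. Tests are given for the catalytic subunits, Psmd4, Psmd14, the 3 of lowest p in each of the 4 subunit groups, the inducible subunits and Nfe2l1, and in other lists for called members or the 2 of lowest p. One such gene is not reported here. Singling out Psmd2, Psmd3, Psmd7 and Psmc5 followed a look at their values. The members and lists were chosen with earlier results of these data known. Lengths are those of principal transcripts in GENCODE M21.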

Additional observations from a re-analysis of the deposited data

How the results depend on the processing

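No member was called under any of the 13 alternatives. Before adjustment, 3 of the 37 were under 0.05 by edgeR's test without control replicate 3, as were 1245 of the 18424 genes tested in that fit. With DESeq2 it was 1 of the 37 and 716 of 18767 genes. The smallest edgeR adjusted p among the 37 in a fit without 1 library was 0.558, without DAF-TM replicate 1, where the lone DAF-TM library is assumed to vary like the controls. The core median stayed below 0 in all of them. The regulatory median was 0.045 after cyclic loess, and ran from -0.205 to -0.0063 when each library was left out in turn. The number of all genes called, 77, was 39 with upper-quartile factors, 23 with cyclic loess, 28 with DESeq2 and 49 with limma-voom, and 14 to 118 without single libraries (14 without DAF-TM library 1, 118 without DAF-TM library 2, 43 without control library 1, 44 without control library 3). The replicate number as a block gave 61 calls over all genes, 0 members called and a core median of -0.28. Same-numbered libraries had deviations correlated at -0.12 and -0.25. With 2 DAF-TM libraries the deviations of one mirror those of the other, so these values cannot decide whether the numbers pair the libraries. No pairing was assumed in the main fit. Core subunits without overlap between groups, an alternative count chosen after seeing the data, numbered 5 with upper-quartile factors, 1 after cyclic loess and 9 to 14 without single libraries. For the regulatory particle the count was 4 with upper-quartile factors, 2 after cyclic loess and 3 to 16 without single libraries. The share of all genes of 100 to 1000 CPM, 24.7% with all libraries, was 27.9% to 74.2% without single libraries. It was 19.7% with upper-quartile factors and 10.8% after cyclic loess, where the shares of all genes tested were 6.03% and 9.34%.

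Of 442 values of the 34 genes chosen by the naming rule, 424 kept their direction and their side of the threshold, and 18 changed sign without a call. With RLE factors Psmb10 stood at -0.0074, and with DESeq2 at -0.0075. With upper-quartile factors, which moved the median of all genes to 0.10, Psmb9 stood at 0.0023 and Psmd4 at 0.012. With cyclic loess Psmb8 stood at 0.021, Psmb9 at 0.080, Psmc1 at 0.045, Psmc6 at 0.0060, Psmd1 at 0.024, Psmd4 at 0.079 and Pomp at 0.034. Without single libraries Psmb10 ran from -0.137 to 0.150, Psmc6 from -0.208 to 0.0012, Pomp from -0.188 to 0.0011, Nfe2l1 from -0.081 to 0.303, Psmb9 from -0.224 to 0.0701 and Psmd4 from -0.138 to 0.0078. The cause of these changes was not tested. With 2 DAF-TM libraries and an SE near 0.17, changes of the size seen here cannot be told from none.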
